A study of Xenopus laevis with 16 samples.

Results

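The DNA replication genes described here are 61 of the 45038 gene rows counted in Xenopus laevis animal caps. They were chosen by name: the Mcm, ORC, GINS, RFC and RPA subunits, Cdc6, Cdt1, Cdc45, PCNA, the replicative polymerases alpha, delta and epsilon, primase and ribonucleotide reductase. The rows stand for 45 genes, of which 16 were present as an L and an S copy and 29 under a single named row. Xenopus laevis is an allotetraploid frog, and the L and S suffixes mark the gene copies on its long and short subgenomes. All 61 rows passed the filter on low counts and were tested.

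Animal caps are explants of prospective ectoderm cut from the blastula, and they form mostly epidermis when left alone. The mRNAs used were ptf1a-GR, GR-neurog2 and ptf1aW224A/W242A-GR, of which 20 pg went into the animal pole of each embryo's blastomeres at the 2-cell stage. Ptf1a and Neurog2 are basic helix-loop-helix transcription factors that drive neuronal fates, and the third mRNA encodes a Ptf1a with the amino acid changes W224A and W242A. GR is the hormone-binding part of the glucocorticoid receptor, which keeps a fused factor inactive until dexamethasone is added. The groups were Ptf1a caps, Neurog2 caps, mutant caps and control caps, each at 25 h and at 6 h of dexamethasone with 2 libraries, and the control caps were exposed to dexamethasone as well. The labels leave it open whether the control caps had received an injection. They also do not say whether replicates came from separate batches of embryos, so the p-values measure the spread between these samples, which may be technical.

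Replication origins are licensed when the origin recognition complex (ORC), Cdc6 and Cdt1 load the ring-shaped Mcm2-7 helicase onto DNA. Cdc45 and the GINS complex then join and activate the helicase, the polymerases and primase copy the strands, RFC loads the sliding clamp PCNA, and RPA coats single-stranded DNA. The Xenopus egg stores large amounts of the mRNAs and proteins of this machinery for the rapid cleavage divisions, and the embryo later depends on its own transcription for cells that keep cycling.

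The libraries held between 31436437 and 228346016 reads assigned to genes. Levels are given as CPM, the read count of a gene relative to the size of its library, after TMM scaling of the library sizes. Most of the variance (76.1%) lay along a first principal component. The rows of the injected genes matched the labels at 6 h, but their counts cannot tell the Ptf1a mRNA from the mutant mRNA. At 6 h ptf1a.L was at 184 and 181 CPM in Ptf1a caps and 152 and 146 CPM in mutant caps. It was at 0.161 and 0.187 CPM in control caps. At the same time neurog2.L was at 158 and 192 CPM in Neurog2 caps and 0.257 and 0.373 CPM in control caps. Over time ptf1a.L nearly vanished from Ptf1a caps, with a log2 fold change of -5.87 that left 2.37 and 3.86 CPM. The change of ptf1a.L in mutant caps was -4.73, and that of neurog2.L in Neurog2 caps was -4.01. By 25 h neurog2.L had reached 5.27 and 6.02 CPM in Ptf1a caps, a log2 fold change of 5.32 over control caps.

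The summed level of the replication genes, after TMM scaling, was much higher in Ptf1a caps than in the other caps at 25 h, and about the same in all groups at 6 h. At 25 h the 61 rows summed to 2058 and 2235 CPM in Ptf1a caps, 839 and 617 CPM in Neurog2 caps, 1135 and 768 CPM in mutant caps and 1025 and 822 CPM in control caps. At 6 h the sums were 7681 and 7800 CPM in Ptf1a caps, 7205 and 7061 CPM in Neurog2 caps, 7619 and 7459 CPM in mutant caps and 7155 and 6883 CPM in control caps. Every group thus held less at 25 h than at 6 h, and the Ptf1a libraries alone stood apart among those of 25 h.

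Measured as a share of its own 6 h mean, the summed level at 25 h was 27.7% in Ptf1a caps, 10.2% in Neurog2 caps, 12.6% in mutant caps and 13.2% in control caps. The Ptf1a mean at 25 h was 2.32 times the control mean, while the Neurog2 mean was 0.788 times and the mutant mean 1.03 times the control mean. By role, the ratio of Ptf1a to control caps at 25 h was 3.08 for RPA, 3.01 for Mcm2-7, 2.73 for PCNA and RFC, 2.15 for ribonucleotide reductase, 1.81 for ORC, Cdc6 and Cdt1, 1.78 for the polymerases and primase, 1.3 for Mcm8 and Mcm9 and 1.14 for Cdc45, GINS and Mcm10. These are bulk samples, in which fewer cells of a type and less RNA per cell cannot be told apart.

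**Figure D1:**
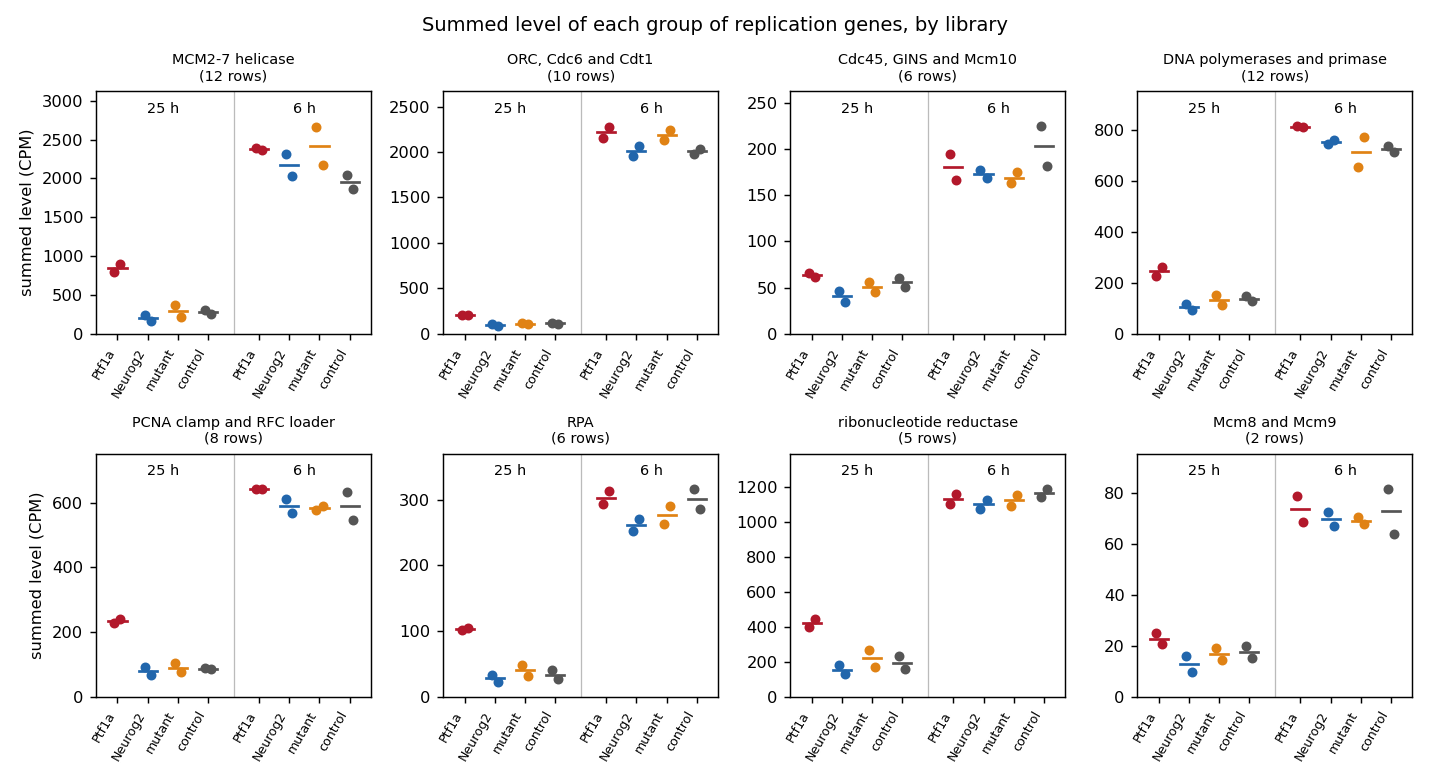
Summed level (CPM) of the replication genes of each role in each of the 16 libraries, 1 point per library, with groups in the order Ptf1a, Neurog2, mutant and control at each time. For Mcm2-7 at 25 h the Ptf1a libraries sit at 800 and 897 CPM, and the other 6 libraries between 172 and 367 CPM.

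The comparison of Ptf1a with control caps at 25 h asks which of these genes differed after 25 h of dexamethasone. How long the factor stayed active was not tested. Of the 61 rows, 32 (52.5%) were called higher and 1 (1.64%) lower at an adjusted p under 0.05 in edgeR's quasi-likelihood test, which was fitted over 30384 genes. Over all genes tested, 11.9% were called higher and 8.62% lower. Among the replication rows 41 were higher and 4 lower at an unadjusted p under 0.05. That count was not made over all genes in any comparison. DESeq2 called 33 rows higher and 4 lower, the lower ones being mcm6.L, mcm3.L, gins4.L and rrm2.1.L. Over the 45038 rows it was fitted to, DESeq2 called 3935 higher and 4310 lower. The median log2 fold change of the 61 rows was 1.09, against 0.08 over all genes tested, with quartiles at 0.43 and 1.81 and a range of -1.48 to 3.56. Both Ptf1a libraries lay above both control libraries for 49 rows and below them for 4, against 32.7% above and 27.3% below of all genes tested.

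Summing L and S copies gave 45 genes, of which 22 were called higher and 1 lower, with a median of 0.90. The calls over all genes with copies summed were not counted. Leaving out control replicate 2 reduced the rows called higher to 19, and leaving out any of the other 3 libraries gave between 24 and 31. Without Ptf1a replicate 1 or without control replicate 1, no row was called lower. The libraries of a group were not equally high: in control caps at 25 h replicate 1 was above replicate 2 for 49 of the 61 rows, in mutant caps for 54 and in Neurog2 caps for 55, against 25 in Ptf1a caps. The same was not counted over all genes tested.

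**Figure D2:**
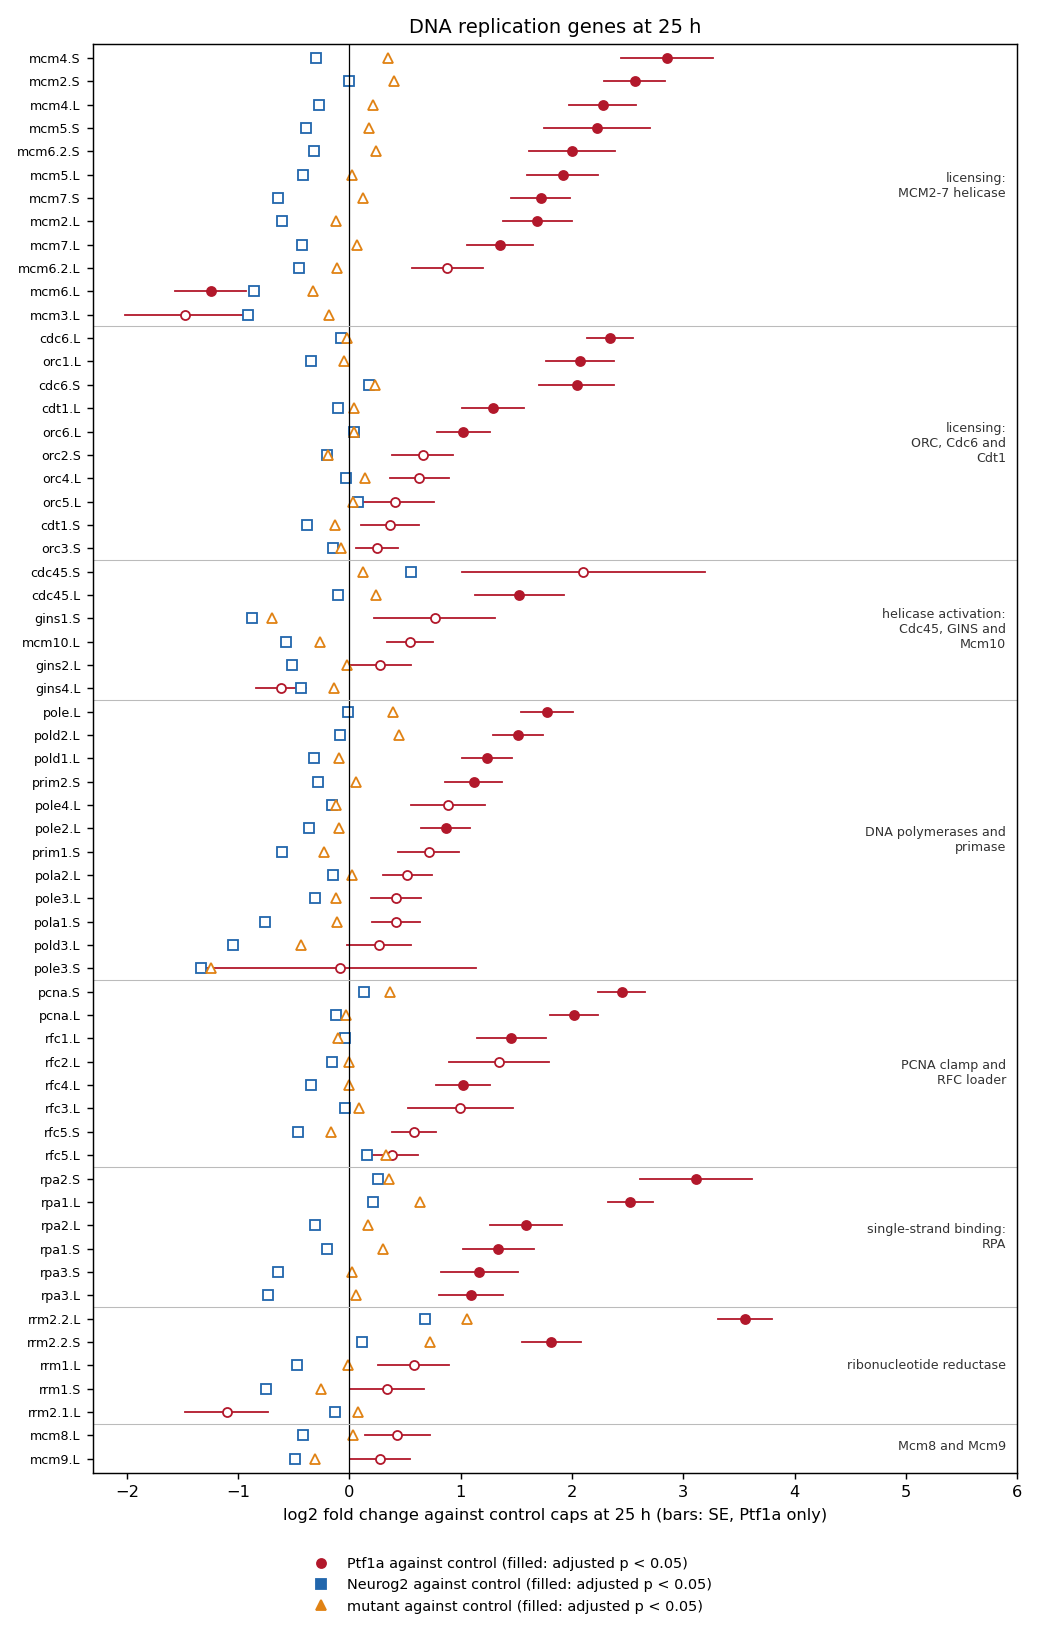
Log2 fold change against control caps at 25 h for each of the 61 rows, grouped by role, for Ptf1a (circles, bars show the SE), Neurog2 (squares) and mutant caps (triangles); filled symbols have an adjusted p under 0.05. The 33 filled symbols all belong to Ptf1a caps, and all but mcm6.L lie to the right of 0.

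The helicase subunits Mcm2-7 had 9 of 12 rows higher and 1 lower in Ptf1a caps, with a median log2 fold change of 1.82. Their sum was 800 and 897 CPM in Ptf1a caps, 241 and 172 CPM in Neurog2 caps, 367 and 215 CPM in mutant caps and 313 and 251 CPM in control caps. Both copies of mcm2, mcm4, mcm5 and mcm7 were called higher than in control caps. Taking of each pair the copy with the smaller p, the largest change was that of mcm2.S (chromosome 4S, 107458920 to 107477977), with 31.6 and 35.8 CPM in Ptf1a caps, 6.02 and 5.33 CPM in Neurog2 caps, 9.72 and 5.4 CPM in mutant caps and 6.28 and 5.1 CPM in control caps. The Ptf1a libraries were well above all 6 others, and the log2 fold change against control caps was 2.56 ± 0.27 (SE; edgeR, adjusted p = 0.000185).

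For mcm4.L (chromosome 6L, 113757797 to 113768909) the levels were 62.8 and 64.8 CPM in Ptf1a caps, 13.2 and 8.62 CPM in Neurog2 caps, 19.9 and 10.6 CPM in mutant caps and 14.8 and 11.5 CPM in control caps. Again the Ptf1a libraries did not overlap with any other, and the log2 fold change was 2.28 ± 0.30 (edgeR, adjusted p = 0.000458). Its S copy was higher than in control caps by 2.85 ± 0.42 on the log2 scale (edgeR, adjusted p = 0.000739).

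Within the group, mcm7.L (chromosome 3L, 136195089 to 136207510) had the highest level per kilobase of exon. It was at 201 and 234 CPM in Ptf1a caps, 71.2 and 55.3 CPM in Neurog2 caps, 114 and 64.9 CPM in mutant caps and 91.8 and 78.3 CPM in control caps. Mutant libraries overlapped with those of Neurog2 and of control caps, while both Neurog2 libraries lay below both control libraries. The Ptf1a libraries lay above the other 6, and the log2 fold change against control caps was 1.35 ± 0.29 (edgeR, adjusted p = 0.00691). The call was lost without control replicate 2, where the log2 fold change was 1.24.

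With copies summed and counted per kilobase, Mcm7 was the highest and Mcm4 the lowest of the 6 subunits in every group. The ratio between them was 3.74 in Ptf1a caps, 6.58 in Neurog2 caps, 6.66 in mutant caps and 7.49 in control caps at 25 h, and between 6.28 and 10.6 in the groups at 6 h. In Ptf1a caps at 25 h Mcm7 averaged 110 ± 10 and Mcm4 29.4 ± 0.24 CPM per kilobase (SD, n = 2).

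Among the loading factors, 5 of 10 rows were called higher in Ptf1a than in control caps: both copies of cdc6, cdt1.L, orc1.L and orc6.L. The median was 0.84, and orc2.S, orc3.S, orc4.L, orc5.L and cdt1.S were not called. Cdc6, the ATPase that works with ORC to load the helicase, had the largest change: cdc6.L (chromosome 9_10L, 1710137 to 1720497) was at 37.6 and 32.3 CPM in Ptf1a caps, 7.38 and 5.69 CPM in Neurog2 caps, 8.09 and 5.54 CPM in mutant caps and 7.1 and 6.69 CPM in control caps. Only the Ptf1a libraries lay above 10 CPM, and the log2 fold change was 2.34 ± 0.21 (edgeR, adjusted p = 0.000102).

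Orc1 is the ORC subunit whose abundance is tied to the cell cycle in mammalian cells. For orc1.L (chromosome 4L, 86599408 to 86632525) the levels were 16 and 8.09 CPM in Ptf1a caps, 2.64 and 1.86 CPM in Neurog2 caps, 2.66 and 2.88 CPM in mutant caps and 2.78 and 2.95 CPM in control caps. The Ptf1a libraries differed from each other, yet both were above all other libraries. The log2 fold change was 2.07 ± 0.31 (edgeR, adjusted p = 0.000848) and was 1.46 without Ptf1a replicate 1.

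Helicase activation was the role with the fewest calls for its size apart from Mcm8 and Mcm9. In it 1 of 6 rows was called higher than in control caps, with a median of 0.66. That row was cdc45.L (chromosome 1L, 154358524 to 154376492), with 14.1 and 8.66 CPM in Ptf1a caps, 4.25 and 3.09 CPM in Neurog2 caps, 6.4 and 3.01 CPM in mutant caps and 5.3 and 2.47 CPM in control caps. The Ptf1a libraries were the highest of the 8, with a log2 fold change of 1.53 ± 0.40 (edgeR, adjusted p = 0.0187). The call was lost without Ptf1a replicate 1 (log2 fold change 1.08), without control replicate 2 (1.10) and when only the 8 libraries of 25 h were fitted (1.56).

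The GINS subunit gene gins4.L (chromosome 3L, 123253121 to 123266104) was the most abundant row of this role per kilobase and pointed the other way. Its levels were 17.4 and 21.1 CPM in Ptf1a caps, 25.4 and 18.1 CPM in Neurog2 caps, 29.6 and 24 CPM in mutant caps and 33.4 and 25.4 CPM in control caps. The Ptf1a and control libraries did not overlap, but the log2 fold change of -0.61 ± 0.22 did not pass edgeR's test (adjusted p = 0.0715), while DESeq2 gave -0.73 (adjusted p = 0.00939).

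Of the polymerase and primase rows, 5 of 12 were called higher than in control caps, with a median of 0.79. They were pole.L and pole2.L of polymerase epsilon, pold1.L and pold2.L of polymerase delta, and the primase subunit gene prim2.S. The polymerase alpha rows pola1.S and pola2.L, with log2 fold changes of 0.42 and 0.52, were not called. The gene for the catalytic subunit of polymerase epsilon, pole.L (chromosome 1L, 143214789 to 143266614), was at 36.8 and 43 CPM in Ptf1a caps, 10.9 and 12.2 CPM in Neurog2 caps, 15.3 ± 4.12 CPM in mutant caps (mean ± SD, n = 2) and 11 and 12.3 CPM in control caps. Its Ptf1a libraries were clear of all others, with a log2 fold change of 1.77 ± 0.23 (edgeR, adjusted p = 0.000443).

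The accessory subunit gene of polymerase delta, pold2.L (chromosome 3L, 119272771 to 119288887), was at 13.8 and 17.8 CPM in Ptf1a caps, 4.86 and 5.57 CPM in Neurog2 caps, 9.2 and 5.9 CPM in mutant caps and 5.98 and 5.02 CPM in control caps. It did not overlap with the other groups either, and its log2 fold change was 1.52 ± 0.23 (edgeR, adjusted p = 0.000852). At the low end, pole3.S was below 1 CPM in both Ptf1a and both control libraries, so no difference was detectable at this depth.

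The clamp PCNA and its loader RFC had 4 of 8 rows higher, with a median of 1.18: both copies of pcna, rfc1.L and rfc4.L. For pcna.L (chromosome 3L, 115094012 to 115098930) the levels were 83.2 and 96 CPM in Ptf1a caps, 22.2 and 18.5 CPM in Neurog2 caps, 24.1 and 19.2 CPM in mutant caps and 19.2 and 25.1 CPM in control caps. Its partner pcna.S (chromosome 3S, 29485759 to 29491221) was at 38.9 and 40.6 CPM in Ptf1a caps, 8.55 and 7.47 CPM in Neurog2 caps, 11.2 and 7.66 CPM in mutant caps and 8.1 and 6.45 CPM in control caps. In both copies the other 6 libraries lay close together and the Ptf1a libraries far above them, with log2 fold changes of 2.02 ± 0.21 for pcna.L (edgeR, adjusted p = 0.000185) and 2.44 ± 0.21 for pcna.S (edgeR, adjusted p = 9.83e-05).

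The large subunit gene of the clamp loader, rfc1.L (chromosome 1L, 28061054 to 28103863), was at 30.7 and 21.8 CPM in Ptf1a caps, 12 and 6.57 CPM in Neurog2 caps, 11.7 and 6.26 CPM in mutant caps and 9.77 and 9.4 CPM in control caps. The log2 fold change was 1.45 ± 0.31 (edgeR, adjusted p = 0.00639). The Ptf1a libraries lay above the other 6, but the call was lost without Ptf1a replicate 1 (log2 fold change 1.15), without control replicate 1 (1.49) and without control replicate 2 (1.42). The rows rfc2.L, rfc3.L, rfc5.L and rfc5.S were not called, with log2 fold changes of 1.35, 0.997, 0.38 and 0.58. For rfc2.L the adjusted p was 0.0517 (edgeR).

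RPA was the only role of which every row was called higher than in control caps, 6 of 6, with a median of 1.46. For the large subunit gene rpa1.L (chromosome 2L, 34990500 to 35027924) the levels were 22.9 and 27.2 CPM in Ptf1a caps, 5.16 and 4.95 CPM in Neurog2 caps, 6.94 and 6.63 CPM in mutant caps and 4.34 and 4.38 CPM in control caps. The replicates were close in every group, and the log2 fold change was 2.52 ± 0.20 (edgeR, adjusted p = 5.75e-05).

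The larger fold of rpa2.S (chromosome 2S, 65243219 to 65256881) was measured at a much lower level. It was at 3.96 and 4.23 CPM in Ptf1a caps, 0.602 and 0.524 CPM in Neurog2 caps, 0.905 and 0.328 CPM in mutant caps and 0.601 and 0.319 CPM in control caps. The log2 fold change was 3.12 ± 0.50 (edgeR, adjusted p = 0.00131), and the Ptf1a libraries were far above the other 6, which overlapped with each other.

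For the small subunit gene rpa3.L (chromosome 6L, 31958401 to 31964792), the highest of the role per kilobase, the levels were 13 and 13.2 CPM in Ptf1a caps, 4.59 and 2.76 CPM in Neurog2 caps, 8.03 and 4.81 CPM in mutant caps and 6.99 and 5.22 CPM in control caps. The Ptf1a libraries lay above the other 6, with a log2 fold change against control caps of 1.09 ± 0.29 (edgeR, adjusted p = 0.0193). This call was lost whichever of the 4 libraries was left out, with log2 fold changes between 0.90 and 1.33, and also when only the 8 libraries of 25 h were fitted (1.11).

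Ribonucleotide reductase, the enzyme that makes deoxyribonucleotides, had 2 of 5 rows higher, both of them copies of rrm2.2. Its small subunit gene rrm2.2.L (chromosome 5L, 138079461 to 138086417) showed the largest log2 fold change of all 61 rows. It was at 92.6 and 90.6 CPM in Ptf1a caps, 14.3 and 10.5 CPM in Neurog2 caps, 19.7 and 12.7 CPM in mutant caps and 8.61 and 6.93 CPM in control caps. Neurog2 and mutant libraries also lay above the control libraries, though far below those of Ptf1a caps, for which the log2 fold change against control caps was 3.56 ± 0.24 (edgeR, adjusted p = 5.75e-05).

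Its copy rrm2.2.S (chromosome 5S, 119084925 to 119091798) was more abundant, at 157 and 166 CPM in Ptf1a caps, 53.2 and 46.1 CPM in Neurog2 caps, 87.9 and 63.7 CPM in mutant caps and 52.4 and 39.3 CPM in control caps. Ptf1a caps were again the highest, with a log2 fold change of 1.81 ± 0.27 (edgeR, adjusted p = 0.000791).

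The neighbouring gene rrm2.1.L (chromosome 5L, 138091507 to 138101249) pointed the other way. Its levels were 6.91 and 12.6 CPM in Ptf1a caps, 18.1 and 20.2 CPM in Neurog2 caps, 25 and 19.5 CPM in mutant caps and 20.7 and 21.3 CPM in control caps. Both Ptf1a libraries were below the other 6, and the log2 fold change of -1.10 did not pass edgeR's test (adjusted p = 0.0548), while DESeq2 gave -1.23 (adjusted p = 0.0103). Counted per kilobase, rrm2.2 made up 96.9% and 94.6% of the rrm2 total in Ptf1a caps, 76.5% and 71% in Neurog2 caps, 79% and 77.5% in mutant caps and 72.1% and 65.5% in control caps. The large subunit rows rrm1.L and rrm1.S had log2 fold changes of 0.58 and 0.34 and were not called.

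Mcm8 and Mcm9 are relatives of the helicase subunits that act mainly in recombination and are not part of the Mcm2-7 ring. Neither row was called, and the median was 0.35. The level of mcm8.L (chromosome 5L, 1260437 to 1295683) was 16.1 and 14.6 CPM in Ptf1a caps, 10.5 and 6.55 CPM in Neurog2 caps, 14 and 9.35 CPM in mutant caps and 12.9 and 9.88 CPM in control caps. Although the Ptf1a libraries were the highest, the log2 fold change of 0.43 did not pass the test (edgeR, adjusted p = 0.339).

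Compared with mutant caps at 25 h, Ptf1a caps had 31 of 61 rows called higher and 0 lower by edgeR, against 4.4% higher and 3.81% lower of all genes tested. Unadjusted p-values under 0.05 were found for 3 rows lower. DESeq2 called 39 rows higher and 2 lower, against 2252 higher and 2657 lower over all genes. The median log2 fold change was 1.06, against 0.03 over all genes. For rrm2.2.L the log2 fold change was 2.5 ± 0.23, for cdc6.L 2.37 ± 0.21, for pcna.L 2.05 ± 0.21 and for rpa1.L 1.89 ± 0.20. The number called higher fell to 10 without mutant replicate 2, which had the lower level of most rows, and was 16 without Ptf1a replicate 1 and 19 without Ptf1a replicate 2.

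Compared with Neurog2 caps at 25 h, 38 rows were higher and 0 lower in Ptf1a caps by edgeR, against 5.13% higher and 4.19% lower of all genes tested. Unadjusted p-values under 0.05 were found for 1 row lower. DESeq2 called 45 rows higher and 0 lower, against 2377 higher and 2607 lower over all genes. The median was 1.40, against 0.02 over all genes. Here the log2 fold change was 2.88 ± 0.24 for rrm2.2.L, 2.42 ± 0.21 for cdc6.L, 2.14 ± 0.22 for pcna.L and 2.31 ± 0.20 for rpa1.L. Without Neurog2 replicate 2 the number called higher was 25.

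These comparisons and that with control caps share the Ptf1a libraries. The overlap of the calls was not counted over all genes tested, so the numbers that follow only describe these rows. In all 3 comparisons 29 rows were called higher, and 23 rows were higher in none. The second set held, among others, gins1.S, gins2.L and gins4.L, orc2.S, orc3.S, orc4.L and orc5.L, pole3.L and pole4.L, rfc2.L, rfc3.L and rfc5.L, both copies of rrm1, rrm2.1.L, mcm3.L, mcm6.L, mcm8.L and mcm9.L.

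No replication row was called in Neurog2 or in mutant caps against control caps at 25 h by edgeR. For Neurog2 caps 0 rows were called, against 2.98% higher and 0.105% lower of all genes tested. Unadjusted p-values under 0.05 were found for 1 row higher and 8 lower. DESeq2 called 2 rows lower, against 1511 higher and 322 lower over all genes. The median log2 fold change was -0.31, against -0.02 over all genes, and 51 of 61 rows were below 0. The lower rows with a small unadjusted p included pold3.L at -1.04 (edgeR, adjusted p = 0.0874) and pola1.S at -0.76 (edgeR, adjusted p = 0.097).

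For mutant caps at 25 h, edgeR called 0 rows against control caps, with 0.803% higher and 0.0329% lower of all genes tested. Unadjusted p-values under 0.05 were found for 3 rows higher and none lower. DESeq2 called 1 row higher, against 749 higher and 201 lower over all genes. The median was 0.03, against 0.01 over all genes. The row nearest to a call was rrm2.2.L, with a log2 fold change of 1.05 ± 0.23 (edgeR, adjusted p = 0.0559). Between mutant and Neurog2 caps edgeR called 0 rows, against 0.00658% higher and 0.00329% lower of all genes tested. At an unadjusted p under 0.05, 6 rows were higher in mutant caps, and the median was 0.34. DESeq2 called 0 rows, against 32 higher and 93 lower over all genes.

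At 6 h no replication row was called by edgeR in any of the 3 injected groups against control caps. In Ptf1a caps 0.885% of all genes tested were higher and 0.0165% lower, while 2 replication rows were higher and 2 lower at an unadjusted p under 0.05 and DESeq2 called 1 lower. In Neurog2 caps 0.247% of all genes were higher and 0.00329% lower, with 0 replication rows higher and 3 lower at an unadjusted p under 0.05 and 0 called by DESeq2. In mutant caps 0.602% of all genes were higher and 0.00329% lower. There 4 replication rows were higher and 1 lower at an unadjusted p under 0.05, and DESeq2 called 0. Over all genes DESeq2 called 482 higher and 94 lower in Ptf1a caps. Its calls were 186 higher and 6 lower in Neurog2 caps, and 460 higher and 11 lower in mutant caps. Leaving out mutant replicate 2, the number called higher in mutant caps was 3.

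The median log2 fold changes at 6 h were 0.13 in Ptf1a caps, -0.01 in Neurog2 caps and -0.07 in mutant caps, against 0.15, 0.01 and 0.03 over all genes tested in the same comparisons. Between Ptf1a and mutant caps at 6 h edgeR called 0 rows, against 0.0296% higher and 0.00329% lower of all genes tested. There were 0 rows at an unadjusted p under 0.05. DESeq2 called 0 rows, against 72 higher and 6 lower over all genes. With mcm10.L, the gene for the factor that helps fire the loaded helicase, the log2 fold change against control caps was -0.54 in Ptf1a, -0.52 in Neurog2 and -0.49 in mutant caps, all without a call and all relative to the same 2 control libraries.

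In control caps most replication genes fell between 6 h and 25 h. Of 61 rows, 52 (85.2%) were called lower and 3 higher at 25 h by edgeR, against 30.4% lower and 28.9% higher of all genes tested. The median log2 fold change of 25 h over 6 h was -2.84, against -0.14 over all genes, with a range of -7.56 to 2.96. The steepest fall was that of the helicase-loading factor gene cdc6.S, by 7.56 on the log2 scale, and cdc6.L fell by 6.51, so that at 25 h it had 1.1% of its level at 6 h. In control caps cdc6.L was at 7.1 and 6.69 CPM at 25 h and at 622 and 638 CPM at 6 h. The 3 rows that rose were mcm5.S, mcm6.2.L and mcm6.2.S, and the 6 that were not called were gins1.S, gins4.L, orc4.L, pole3.L, pole3.S and prim2.S.

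Neurog2 and mutant caps went much the same way over time by counts. In Neurog2 caps 52 rows were lower and 1 higher at 25 h, against 29.7% lower and 30.7% higher of all genes, with a median of -2.88 for the replication rows and 0.01 over all genes. In mutant caps 48 rows were lower and 2 higher, against 30.7% lower and 28.6% higher of all genes, with medians of -2.55 and -0.14. The rows that rose were mcm6.2.L in both and mcm5.S in mutant caps.

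In Ptf1a caps 42 rows (68.9%) were lower and 5 (8.2%) higher at 25 h than at 6 h, against 29.8% lower and 28.7% higher of all genes, with medians of -1.36 and -0.06. The 5 that rose were mcm5.S, mcm6.2.L, mcm6.2.S, orc4.L and prim2.S. Another 14 rows were not called, among them both copies of pcna and rpa1. The level of pcna.L in Ptf1a caps was 83.2 and 96 CPM at 25 h and 77.3 and 107 CPM at 6 h, with overlapping times and a log2 fold change of -0.04 (edgeR, adjusted p = 0.884). In control caps the same row was at 19.2 and 25.1 CPM at 25 h and 62.8 and 66 CPM at 6 h, and it fell by 1.54 on the log2 scale (edgeR, adjusted p = 4.77e-05).

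**Figure D3:**
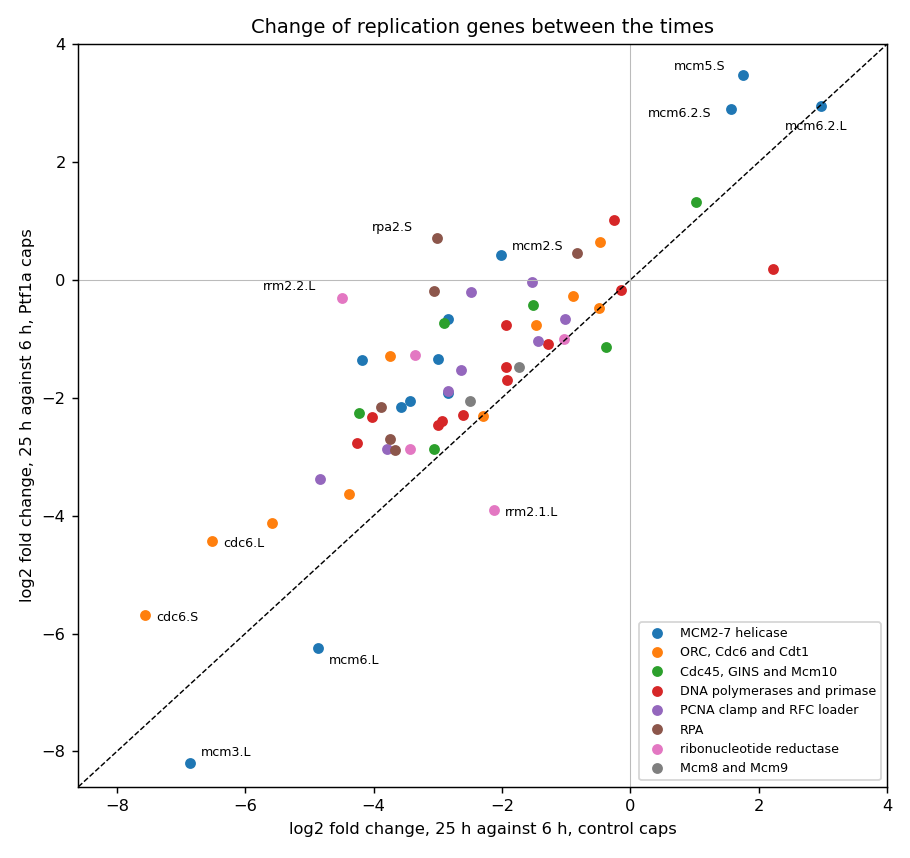
Log2 fold change of 25 h over 6 h for each of the 61 rows in Ptf1a caps (vertical axis) and in control caps (horizontal axis), coloured by role, with the line of equality dashed. Most points lie above the line and below 0 on both axes, and rrm2.2.L, at -0.30 in Ptf1a and -4.49 in control caps, lies farthest above it.

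Whether the difference between Ptf1a and control caps itself differed between 25 h and 6 h was tested as an interaction. The test used the signed log2 fold change, so a gene counted as smaller may be one that fell further below control caps. By edgeR the value was larger at 25 h for 22 of the 61 rows and smaller for 0. Over all genes tested, 4.47% were larger and 5.34% smaller. At an unadjusted p under 0.05 there were 32 larger and 3 smaller. DESeq2 called 27 rows larger and 2 smaller, against 2401 larger and 2603 smaller over all genes. The median difference of the log2 fold changes was 1.05, against -0.10 over all genes. Leaving out 1 library at a time left 12 to 16 rows larger, with 12 without Ptf1a replicate 2 of 6 h and without control replicate 2 of 25 h, and 13 without either control library of 6 h, Ptf1a replicate 1 of 6 h or Ptf1a replicate 1 of 25 h.

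The smallest p-values of the interaction belonged to rrm2.2.L, rpa1.L, pcna.S and cdc6.L. The difference of the log2 fold changes was 4.19 ± 0.32 for rrm2.2.L (edgeR, adjusted p = 0.000144), 2.88 ± 0.28 for rpa1.L (edgeR, adjusted p = 0.000289), 2.27 ± 0.29 for pcna.S (edgeR, adjusted p = 0.00121) and 2.08 ± 0.28 for cdc6.L (edgeR, adjusted p = 0.00165). In Ptf1a caps rrm2.2.L was at 92.6 and 90.6 CPM at 25 h and 111 and 115 CPM at 6 h, and in control caps at 8.61 and 6.93 CPM at 25 h and 160 and 190 CPM at 6 h. These rows follow 2 patterns: rrm2.2.L, rpa1.L and pcna.S were not called between the times in Ptf1a caps, while cdc6.L fell by 4.43 on the log2 scale there and by 6.51 in control caps.

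The corresponding interactions for Neurog2 and mutant caps held 0 rows by edgeR. For Neurog2 caps 0.207% of all genes tested were larger and 0.0889% smaller at 25 h, with 2 replication rows larger and 4 smaller at an unadjusted p under 0.05 and 0 by DESeq2. For mutant caps 0.0724% were larger and 0.122% smaller. There 3 replication rows were larger and 1 smaller at an unadjusted p under 0.05, and DESeq2 called 1 larger. Over all genes DESeq2 called 609 larger and 181 smaller for Neurog2 caps, and 257 larger and 237 smaller for mutant caps.

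Xenopus has maternal and zygotic forms of Mcm6 and Mcm3, and RefSeq lists mmcm6 as a synonym of mcm6.L and zmcm6 as one of mcm6.2. Between the times mcm6.L and mcm6.2 exchanged places in all groups. The maternal form mcm6.L (chromosome 6L, 57528459 to 57583351) was at 2.46 and 2.94 CPM in Ptf1a caps, 4.48 and 2.57 CPM in Neurog2 caps, 6.64 and 3.67 CPM in mutant caps and 7.7 and 5.02 CPM in control caps at 25 h. At 6 h it was at 204 and 204 CPM in Ptf1a caps, 195 and 177 CPM in Neurog2 caps, 159 and 186 CPM in mutant caps and 208 and 164 CPM in control caps. The times were far apart in every group, and the row fell by 6.24 on the log2 scale in Ptf1a caps and by 4.86 in control caps.

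At 25 h mcm6.L was the row called lower in Ptf1a than in control caps, with a log2 fold change of -1.24 ± 0.32 (edgeR, adjusted p = 0.0163). The call was lost without Ptf1a replicate 1 (-1.17), without Ptf1a replicate 2 (-1.39), without control replicate 1 (-0.89) and when only the 8 libraries of 25 h were fitted (-1.22).

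The zygotic copy mcm6.2.S (chromosome 9_10S, 48350742 to 48370398) was at 71 and 83.2 CPM in Ptf1a caps, 17.1 and 13.8 CPM in Neurog2 caps, 27.9 and 17.6 CPM in mutant caps and 19.7 and 18.8 CPM in control caps at 25 h. At 6 h it was at 10.9 and 9.92 CPM in Ptf1a caps and 7.49 and 5.53 CPM in control caps. Ptf1a caps at 25 h were thus above all other groups, and the log2 fold change against control caps was 2.0 ± 0.39 (edgeR, adjusted p = 0.0036).

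Its L copy mcm6.2.L (chromosome 9_10L, 53132704 to 53143456) was at 96.7 and 113 CPM in Ptf1a caps, 47.7 and 35.5 CPM in Neurog2 caps, 60.9 and 44.6 CPM in mutant caps and 64.5 and 49.5 CPM in control caps at 25 h. At 6 h it was at 12.2 and 15.1 CPM in Ptf1a caps and 7.25 and 7.37 CPM in control caps. The Ptf1a libraries were above the control libraries at both times, but the log2 fold change at 25 h, 0.88 ± 0.32, did not pass the test (edgeR, adjusted p = 0.0702) except in the fit of the 8 libraries of 25 h (0.90). Over time in control caps mcm6.2.L rose by 2.96 and mcm6.2.S by 1.56 on the log2 scale.

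As a share of all Mcm6 transcripts per kilobase, mcm6.2 was 98% and 98% in Ptf1a caps, 91.4% and 93.3% in Neurog2 caps, 90.7% and 92.5% in mutant caps and 88.9% and 90.9% in control caps at 25 h, and between 4.87% and 15.3% in the 8 libraries of 6 h. All libraries of 25 h were above all of 6 h, and the Ptf1a libraries were the highest of 25 h.

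For Mcm3 the row mcm3.L was at 0.43 and 0.307 CPM in Ptf1a caps, 0.64 and 0.428 CPM in Neurog2 caps, 1.15 and 0.688 CPM in mutant caps and 1.43 and 0.478 CPM in control caps at 25 h. At 6 h it was between 67.8 and 134 CPM in all libraries, and in control caps it fell by 6.86 on the log2 scale. The zygotic form zmcm3.L lies outside the naming rule and was read for comparison: its share of the Mcm3 total per kilobase was between 95.8% and 99.7% at 25 h and between 18.4% and 52.1% at 6 h. Its own change over time was not called in control caps, with a log2 fold change of 25 h over 6 h of -0.23 (edgeR, adjusted p = 0.58), and it fell by 1.10 on the log2 scale in Neurog2 caps (edgeR, adjusted p = 0.0153). It was higher in Ptf1a than in control caps at 25 h, with a log2 fold change of 1.66 ± 0.35 (edgeR, adjusted p = 0.00596).

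Of the copies of mcm5, mcm5.S gained share over time but stayed below mcm5.L. The row mcm5.S (chromosome 4S, 88235582 to 88249144) was at 43.3 and 47.3 CPM in Ptf1a caps, 8.85 and 5.95 CPM in Neurog2 caps, 13.3 and 8.61 CPM in mutant caps and 12 and 7.41 CPM in control caps at 25 h. At 6 h it was at 2.53 and 5.67 CPM in Ptf1a caps and 1.96 and 3.82 CPM in control caps. It rose over time by 3.47 in Ptf1a and by 1.75 in control caps on the log2 scale, the second call being lost without control replicate 1 of 6 h (1.34) or of 25 h (1.36). Against control caps at 25 h its log2 fold change was 2.22 ± 0.48 (edgeR, adjusted p = 0.00645), and that call was lost without control replicate 2 (1.92).

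**Figure D4:**
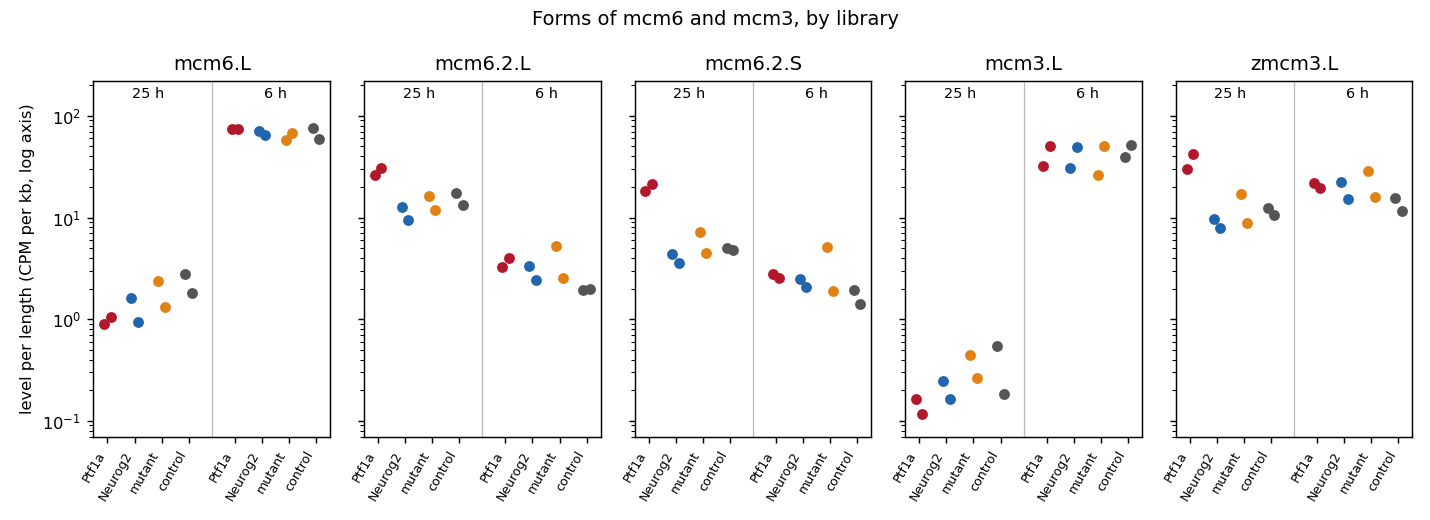
Level per kilobase of exon (CPM per kilobase, log axis) of mcm6.L, mcm6.2.L, mcm6.2.S, mcm3.L and zmcm3.L in each library by group and time, 1 panel per row. mcm6.L and mcm3.L lie lower at 25 h than at 6 h in every group, and mcm6.2.L higher. The points of mcm6.2.S also lie higher at 25 h except in mutant caps, where the times overlap (7.16 and 4.51 against 5.08 and 1.89 CPM per kilobase).

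The 16 genes with both copies allowed the subgenomes to be set side by side. In Ptf1a against control caps at 25 h both copies were higher for 10 genes (cdc6, mcm2, mcm4, mcm5, mcm7, pcna, rpa1, rpa2, rpa3 and rrm2.2), the L copy alone was called for cdc45 and cdt1, the S copy alone for mcm6.2, and neither for pole3, rfc5 and rrm1. The calls of all other L and S pairs were not counted in this way. Reads that match both copies of a gene may have been divided between them, since the treatment of such reads and the strandedness are not given in the sources used here, and a difference in calls between copies was not tested as such.

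The share of the L copy in the pair's counts did not overlap between the 8 libraries of 25 h and the 8 of 6 h for 10 of the 16 pairs: cdc45, cdc6, cdt1, mcm2, mcm4, mcm5, rfc5, rpa1, rpa2 and rrm1. Of all 8571 pairs with both copies tested, 45.2% showed no such overlap. For mcm5 the L share was 65.1% to 73.7% at 25 h and 97.7% to 99.1% at 6 h. For cdt1 it was 16.8% to 30% at 25 h and 51.2% to 73.1% at 6 h, and for rrm1 17.2% to 22.3% at 25 h and 46.1% to 54.4% at 6 h. In these genes the L share was lower at 25 h, while for mcm4, cdc6 and rfc5 it was higher. For mcm4 it was 71.4% to 86.4% at 25 h and 56.9% to 63.6% at 6 h.

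Between Ptf1a and control caps at 25 h the L share did not overlap for 12 of the 16 pairs, all but cdc6, pole3, rfc5 and rpa3, against 56.5% of all pairs. The L share of rrm2.2 was 37.1% and 35.3% in Ptf1a caps and 14.1% and 15% in control caps, and that of mcm6.2 was 57.7% and 57.7% in Ptf1a caps and 76.6% and 72.5% in control caps.

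**Figure D5:**
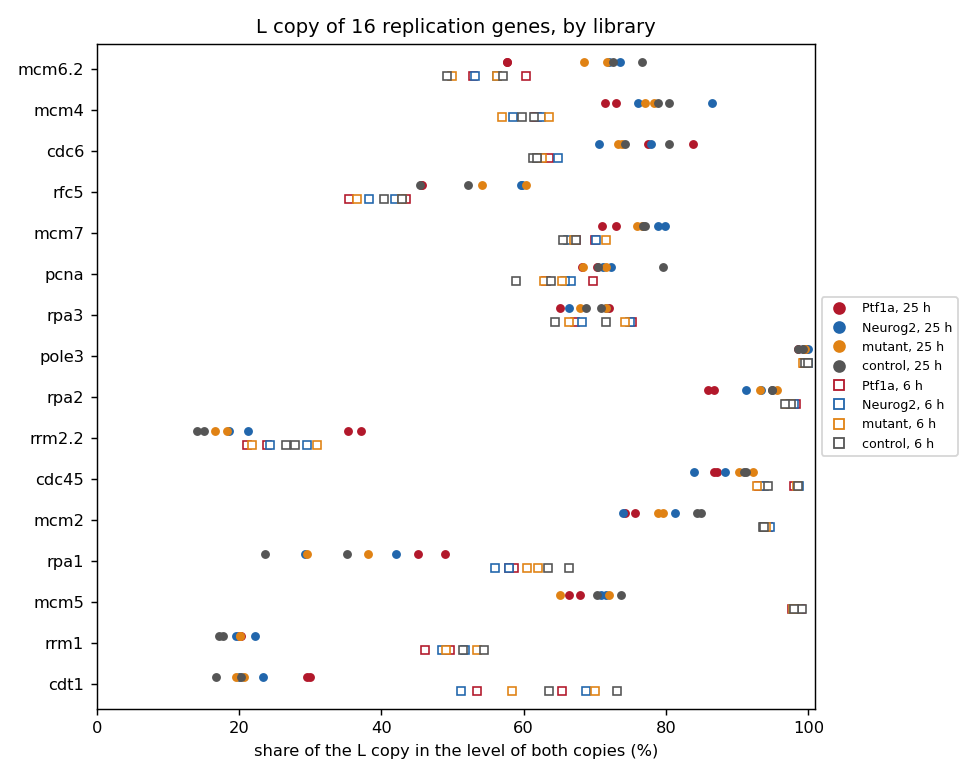
Share of the L copy (percent of L plus S counts) in each library for the 16 genes with both copies, by group and time. The share of mcm5 lies between 65.1% and 73.7% at 25 h and between 97.7% and 99.1% at 6 h.

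Other genes of DNA replication and the cell cycle were read from lists chosen by function. Over all genes tested, 11.9% were called higher and 8.62% lower in Ptf1a against control caps at 25 h. Replisome and licensing partners were higher in Ptf1a than in control caps at 25 h for 20 of 36 rows and lower for 0, and their median log2 fold change was 0.99. One of them was gmnn.L, the gene for the Cdt1 inhibitor geminin, at 40.7 and 24.1 CPM in Ptf1a caps, 13.5 and 16.1 CPM in Neurog2 caps, 5.92 and 2.85 CPM in mutant caps and 3.57 and 1.99 CPM in control caps. In Ptf1a caps it was higher than in control caps by 3.52 ± 0.45 on the log2 scale (edgeR, adjusted p = 0.000368). In Neurog2 caps it was higher by 2.39 ± 0.43 (edgeR, adjusted p = 0.0113). Genes of chromatin assembly at the fork were higher for 12 of 16 rows and lower for 0, with a median of 1.61, led by hells.L at 3.17, cdca7.S at 2.58 and dnmt1.L at 2.46, which encode a chromatin remodeller, its partner and the maintenance DNA methyltransferase.

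Recombination and mismatch repair genes were higher for 7 of 12 rows and lower for 0 (median 0.92), with msh6.L at 1.98. Regulators of the step from G1 to S were higher for 19 of 49 rows and lower for 6 (median 0.57), with mycn.L at 4.16 and e2f1.S at 3.17. Nucleotide supply had 1 of 7 rows higher and 0 lower (median 0.60), the row being thymidine kinase tk1.L at 1.70, and the S phase checkpoint 1 of 13 higher and 0 lower (median 0.41). Of the genes of mitosis, 3 of 52 rows were higher and 2 lower, with a median of 0.20, among them ect2.L at 0.89 and prc1.L at -0.87, both of which act in cytokinesis. The higher calls of nucleotide supply, the S phase checkpoint and mitosis were near or below the share of all genes tested (11.9%). The lower calls of the G1 to S regulators were not far from that share for lower calls (8.62%). In Neurog2 caps the median of the mitosis genes was -0.49.

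Markers of cell types that an animal cap can hold were read in the same comparison, in which 11.9% of all genes tested were higher and 8.62% lower. In Ptf1a against control caps at 25 h neuron markers were higher for 18 of 19 rows, neural progenitor markers for 19 of 23 and neural crest markers for 12 of 14, with 0 lower in each. Epidermis markers were lower for 5 of 13 rows, multiciliated cell markers for 7 of 13 and ionocyte markers for 6 of 7, with 0 higher in each. Mesoderm and muscle markers were higher for 1 and lower for 2 of 13, and endoderm markers higher for 2 and lower for 2 of 12, while the endoderm marker darmin.L had no count in any library.

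At 25 h the neural progenitor markers summed to 987 to 1506 CPM in Ptf1a caps, 371 to 964 CPM in Neurog2 caps, 205 to 523 CPM in mutant caps and 92.6 to 118 CPM in control caps. The neuron markers summed to 922 to 969 CPM in Ptf1a caps, 670 to 2256 CPM in Neurog2 caps, 280 to 928 CPM in mutant caps and 94.6 to 129 CPM in control caps. The sums of both marker sets were thus above those of the control libraries in every injected group. By rows, neural progenitor markers were called higher than in control caps for 7 of 23 in Neurog2 and 3 of 23 in mutant caps. Neuron markers were called higher for 16 of 19 rows in Neurog2 and 9 of 19 in mutant caps, with 0 lower in either set. Over all genes tested, 2.98% were higher in Neurog2 and 0.803% in mutant caps. The neural crest markers summed to 224 to 259 CPM in Ptf1a caps, 31.1 to 39 CPM in Neurog2 caps, 45.7 to 50.2 CPM in mutant caps and 32.1 to 38.5 CPM in control caps, with the Ptf1a libraries above all others. The epidermis markers summed to 46640 to 61900 CPM in Ptf1a caps, 80520 to 81640 CPM in Neurog2 caps, 78550 to 112200 CPM in mutant caps and 98650 to 113800 CPM in control caps. The part of these cell types in the levels of the replication genes was not tested.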

How the data were processed

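Total RNA of animal caps was sequenced in 16 libraries, 8 groups of 2. The authors deposited raw counts of reads per gene, without gene lengths. Per the submitters' processing notes CASAVA 1.8, STAR 2.5, featureCounts and DESeq2 1.8 were used, with no role given for each. Gene positions and exon lengths came from the deposited annotation of genome build 9.1, and synonyms from RefSeq. No molecular identifiers are mentioned, so PCR copies may be among the reads.

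Counts were tested with edgeR 4.0.16 in R 4.3.3 (TMM, filterByExpr by group, robust quasi-likelihood fit of group means over all 16 libraries, 8 residual degrees of freedom). P-values were adjusted by Benjamini-Hochberg over the 30384 of 45038 genes that passed the filter, and a gene was called at an adjusted p under 0.05. Fold changes carry a prior count of 0.125. A ± after a log2 fold change is a standard error, obtained as the absolute log2 fold change divided by the square root of the F statistic. The test was also run on simulated counts, in which only the Ptf1a caps at 25 h were given changed genes. Its outcome is not used here. DESeq2 1.42.0 was an alternative.

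Members were chosen by name, and members, roles and gene lists were chosen with earlier results of these data known. Values per library are given for the 2 rows of each role with the largest called change (counting each gene once, by its copy with the smaller p), for rows called against the majority, for the smallest p-values of the interactions and for the highest level per kilobase of each role. Other genes are named from counts of few rows or as the largest changes of a list. No sequences are shown.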

Additional observations from a re-analysis of the deposited data

Results flagged for a closer look

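The difference between Ptf1a and control caps was not the same at 25 h and at 6 h for part of the rows. The interaction was called for 22 of the 61 replication rows, against 4.47% larger and 5.34% smaller of all genes tested. In all 22 the signed log2 fold change was higher at 25 h than at 6 h. The rows with the smallest p-values, with the difference of their log2 fold changes, were rrm2.2.L (4.19), rpa1.L (2.88), pcna.S (2.27) and cdc6.L (2.08). The groups hold 2 libraries each, too few to look for single libraries far from the rest.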

How the results depend on the processing

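Of the counts of replication rows called and the alternatives tried, 282 stayed within 1.5 times the value given and 34 did not. Most of the 34 were counts near 0. By DESeq2 the rows lower were 1 in Ptf1a caps at 6 h, 4 in Ptf1a caps at 25 h, 2 in Neurog2 caps at 25 h, 2 in Ptf1a against mutant caps and 2 in the Ptf1a interaction, and 1 row was higher in mutant caps at 25 h and 1 in the mutant interaction. With DESeq2's size factors 3 rows were lower in Ptf1a caps at 25 h and 1 in the interaction, with no filter on low counts 1 in the interaction, and with only the 8 libraries of 25 h 1 in Ptf1a against mutant caps. Under these size factors the median over all genes for Ptf1a caps at 25 h was -0.02, against 0.08 with TMM.

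Leaving out 1 library at a time gave 19 to 31 rows higher and 0 to 2 lower in Ptf1a against control caps at 25 h, 10 to 29 higher against mutant caps, 25 to 33 higher against Neurog2 caps, and 12 to 16 larger and 0 to 1 smaller in the interaction. Mutant against control caps had 0 to 3 rows higher at 6 h and 0 to 1 at 25 h, and 1 to 2 higher at 25 h than at 6 h. Of the 33 calls in Ptf1a against control caps, 19 remained whichever library was left out. Without Neurog2 replicate 1 at 25 h the log2 fold change of Ptf1a over Neurog2 caps became positive for gins4.L (0.095) and mcm6.L (0.075), against -0.40 and -0.73 without Neurog2 replicate 2; neither gene was called.

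Libraries of equal replicate number deviated together (r between 0.158 and 0.697), but the labels do not say what a number marks, and 2 numbers are too few to settle it. With a replicate block the rows called in Ptf1a against control caps at 25 h were 39 higher and 3 lower, and 39 and 50 were higher against mutant and Neurog2 caps. The block also gave 1 row lower in Neurog2 caps and 1 higher in mutant caps at 25 h. It gave 2 higher over time in Neurog2 caps, and 27 larger and 2 smaller in the interaction. Calls over all genes were counted only for the main edgeR fit and DESeq2's test, not with the block or the other alternatives.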
